A study of Aedes albopictus with 6 samples.

Results

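LOC109404958 is the gene of a perlecan-type basement membrane proteoglycan in the Asian tiger mosquito, Aedes albopictus. All circular RNAs (circRNAs) whose host gene carried this identifier were taken, which gave 19 of the 8690 circRNAs listed. The gene had drawn attention because one of its circRNAs was higher in females, so female and male values of its own circRNAs are given here as descriptions without a test. The libraries came from whole bodies of virgin mosquitoes of the Foshan strain aged 2 days, with 3 pools of 30 females and 3 pools of 30 males. Linear RNA had been digested with RNase R, and the measurement is the number of reads across a back-splice junction, the join that closes a circle. Libraries held 13322 to 17197 junction reads in females and 21624 to 27257 in males. Each circRNA is called a circle here and carries a letter, A to S, in order from the 5′ to the 3′ side of the gene.

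Perlecan is a large secreted core protein that carries heparan sulfate chains. It sits in basement membranes, the sheets of matrix under epithelia and around muscle, fat body and ovarian follicles, where laminin and collagen IV form the networks that it helps to tie together. Its sugar chains bind growth factors and other secreted signals. In Drosophila the gene is called terribly reduced optic lobes (trol), and it is known from neural stem cell proliferation and from the matrix around egg chambers. A circRNA arises when the splice donor of a downstream exon joins the acceptor of an upstream exon, so the upstream end of a circle is an acceptor and its downstream end a donor.

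LOC109404958 was among the genes with the most circles. The gene lies on the minus strand of contig NW_021837267.1, from 51286849 to 51643233, a length of 356385 bases, and the count table lists 35 proteins for it under the product name basement membrane-specific heparan sulfate proteoglycan core protein. Its 19 circles gave it rank 3 among 4166 host genes, after a zinc finger protein gene (LOC109420654) with 34 and dystonin (LOC109422269), a cytoskeletal linker, with 30. The median host gene listed 1. By junction reads it stood lower, at rank 98, with 202 reads over the 6 libraries. No circle of another entry was listed within the gene on either strand. No circRNA elsewhere had the same span and spliced length as one of the 18 circles with a spliced length.

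The circles were confined to the 3′ part of the gene in these 6 libraries. The most upstream end, that of circle A, lay 168977 bases inside the annotated 5′ end, so the first 47.4% of the gene held no listed circle. Ends fell in exons at both sides for 17 circles. Circle M joined intron to intron, and circle C joined an exon to an intron. Spans ran from 239 bases for circle M to 102698 bases for circle B, with a median of 1953. Spliced length, the authors' value for 18 of the circles, ran from 229 bases for circle F to 2622 for circle Q, with a median of 471 against 650 over all exon-exon circRNAs. By these lengths, a median of 68.9% of the span of a circle would be spliced out, against 30.1% over all exon-exon circRNAs. Both medians of the gene take in circle C, which is not exon-exon. Junction reads do not show the inside of a circle. Spliced length was divisible by 3 in 4 circles (E, G, I and Q), and in 34.1% of exon-exon circRNAs at large.

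**Figure D1:**
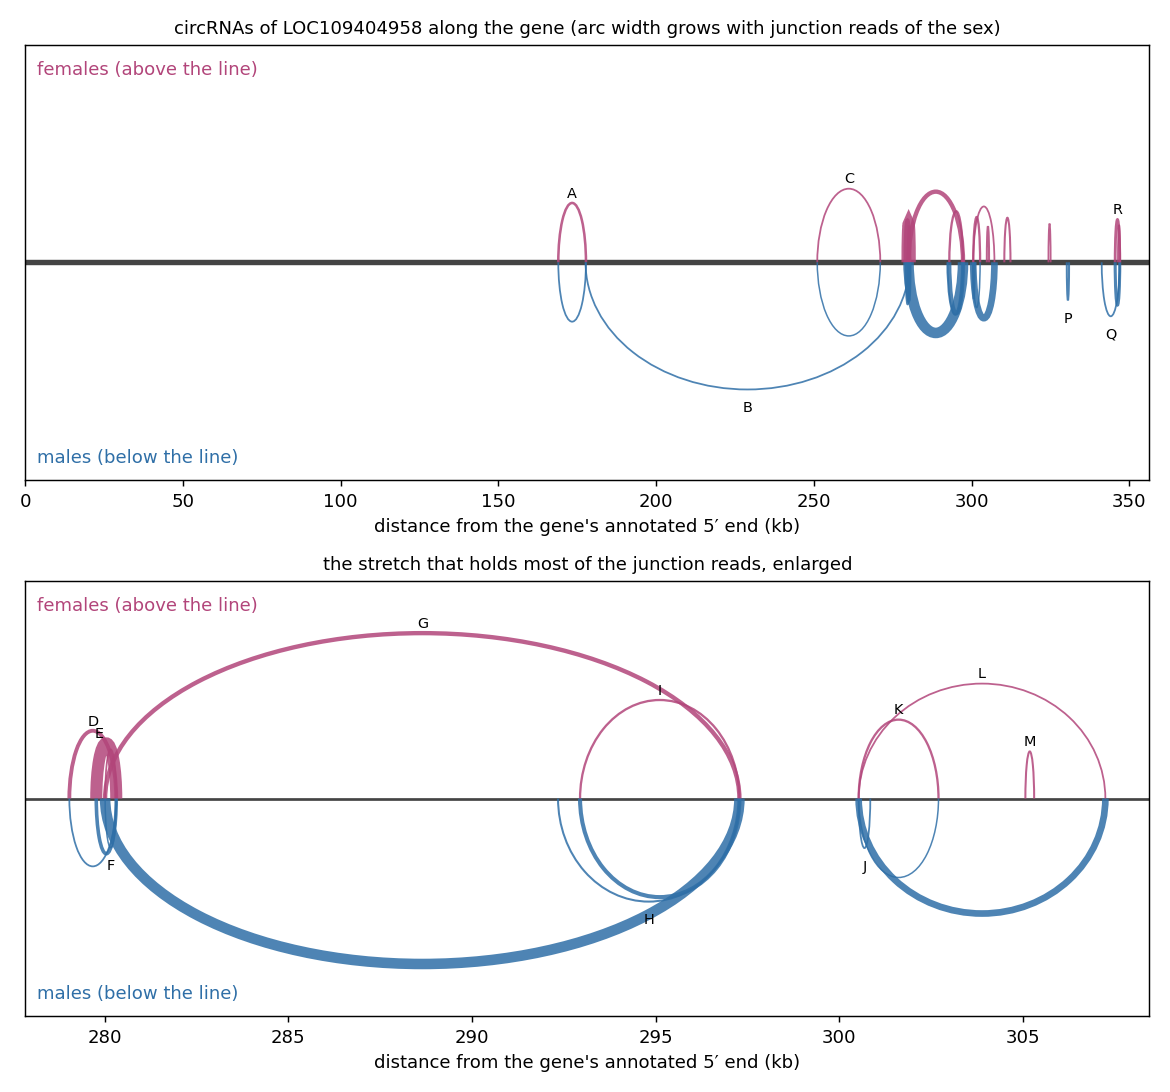
Positions of the circles along LOC109404958, as distance in kilobases from the annotated 5′ end of the gene, with female reads above and male reads below the line. Arc width grows with the junction reads of that sex and arc height is not to scale. The lower panel enlarges the stretch with 10 circles and 81.7% of the reads, where the widest female arc is circle E and the widest male arc is circle G.

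Most reads came from a short stretch. The 28208 bases from 51335987 to 51364195, 7.92% of the length of the gene, contained 10 whole circles (D to M) and 165 of the 202 reads, or 81.7%. They held 79.8% of the female reads and 83.5% of the male reads. This stretch was bounded after the reads had been seen.

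Circles of the gene reused a small number of splice sites. The 19 circles had 16 distinct upstream and 13 distinct downstream ends. Of these, 5 were used by 2 or more circles, and 12 circles with 88.6% of the reads used at least 1 of them. Allowing 10 bases of difference between ends changed neither count. The donor at 51362918 closed 4 circles (B, D, E and F). The donor at 51345951 closed 3 (G, H and I), and the donor at 51296258 closed Q and R. Among acceptors, 51342704 opened J, K and L, and 51363221 opened F and G. In the 37 host genes with 10 or more circles, the share of circles with a reused end had a median of 81.8% and ran from 0% to 100%. LOC109404958 stood at 63.2%, below 29 of them.

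By the authors' spliced lengths, the circles around the reused ends nest as follows. Circle F (51362918 to 51363221) spans 303 bases and contains 229 after splicing. Circle E (51362918 to 51363462) extends F at its upstream side by 241 bases of gene and 113 spliced bases, to 342. Circle D (51362918 to 51364195) extends E by a further 733 bases of gene and 116 spliced bases, to 458. On the other side, circle G (51345951 to 51363221) has 795 spliced bases. That equals the 566 of circle H (51345951 to 51350889) plus the 229 of circle F, which lie 12029 bases apart inside G. Circle I (51345951 to 51350290) is the shorter form of H, with 348. Circles E and G, which had the most reads, therefore share the span of circle F but no end. Block F, picked after the reads had been seen, was spanned by 5 circles in all (B, D, E, F and G), which held 57.4% of the reads.

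A second nest lay further downstream. Circles J, K and L share the acceptor at 51342704 and end at 51342387, 51340530 and 51335987, with 247, 574 and 770 spliced bases. At the 3′ side of the gene, circle R (51296258 to 51297712) has 1271 spliced bases, and circle Q extends it upstream to 51301981 with 2622. Circle S (51296281 to 51296677, 334 spliced bases) ends 23 bases from their donor and was not counted as sharing it.

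Circle E had the most reads in females. It had 18, 15 and 9 reads in female replicates 1, 2 and 3, and 3 reads in each of the 3 male libraries. In the unit used for levels, junction reads per 10000 of the TMM-scaled library, this was 11.05, 8.75 and 6.60 in females and 1.39, 1.21 and 1.09 in males. The lowest female library stood above the highest male library. The means were 8.80 ± 2.23 and 1.23 ± 0.15 (SD, n = 3 each), and the fitted log2 fold change, females relative to males, was 2.80 (SE 0.69). Since the gene was chosen for this difference, no test is attached to it.

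Circle G, which shares block F with E, had its highest reads in males. Female replicates had 3, 5 and 4 reads, and male replicates 7, 10 and 19. The levels were 1.84, 2.92 and 2.93 in females and 3.24, 4.02 and 6.89 in males, so the sexes did not overlap here either, in the opposite direction to circle E. The means were 2.56 ± 0.63 and 4.72 ± 1.92 (SD, n = 3 each), with a log2 fold change (females relative to males) of -0.88 (SE 0.73), an SE nearly as large as the value, and -0.50 without male replicate 3. Circles E and G were the 2 circles with enough reads to enter the fit across all circRNAs, and 17 were not fitted. Among the 738 circRNAs in that fit, the sexes did not overlap in 27.0%, with females above in 12.1% and males above in 14.9%. By the edgeR test 6.64% of them passed, 3.79% higher in females and 2.85% higher in males. Nothing is read from these shares for circles E and G, because the gene was chosen on this contrast.

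Circle L came next by reads and also had most of them in males. It had 2 reads in female replicate 2 and none in the other 2 female libraries, against 5, 6 and 10 in the males. The levels were 0.39 ± 0.67 in females and 2.79 ± 0.73 in males (SD, n = 3 each). No fold is given on 2 female reads.

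**Figure D2:**
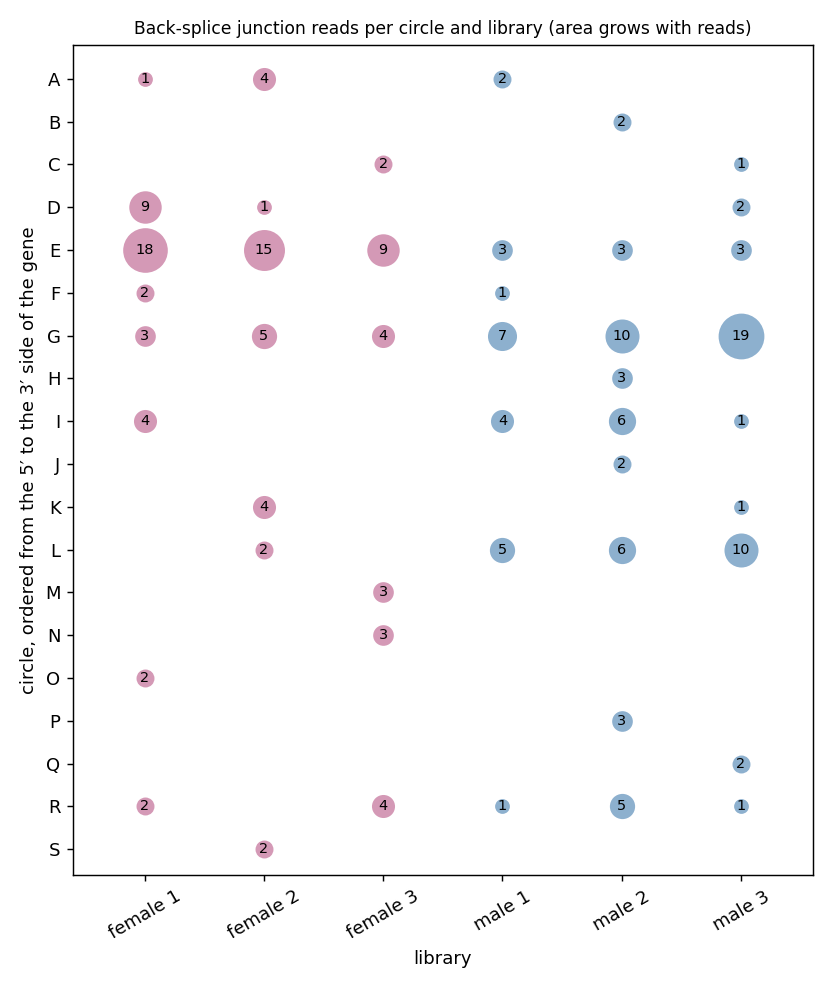
Back-splice junction reads of each circle (rows, from 5′ at the top to 3′) in each library (columns); the area of a disc grows with the reads, which are printed in it, and an empty place is 0 reads. Circle E has 9 to 18 reads in the female libraries and 3 in each male library, whereas circle G has 3 to 5 and 7 to 19.

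The remaining circles had few reads each. Circle I had 4, 0 and 0 reads in females and 4, 6 and 1 in males. Circle R had 2, 0 and 4 in females and 1, 5 and 1 in males, so its sexes overlapped. Circle D was uneven among females, with 9, 1 and 0 reads, against 0, 0 and 2 in males; 9 of its 12 reads came from female replicate 1. Circle A, the most upstream, had 1, 4 and 0 reads in females and 2, 0 and 0 in males, and circle K had 0, 4 and 0 against 0, 0 and 1.

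Circles seen in a single library made up 9 of the 19 (B, H, J, M, N, O, P, Q and S) but 22 of the 202 reads, with 2 or 3 reads each. All circles found in 1 sex belong to this set: M, N, O and S had reads in females and none in males, and B, H, J, P and Q the reverse. Every circRNA in the table had at least 2 reads in some library, so these circles lie at its lower limit, and absence from the other sex could not be told from low abundance at this depth. Only E and G had reads in all 6 libraries. A count of 0 over the 3 libraries of a sex still allows an expected count of up to about 3 reads, as a 1-sided bound at 95% confidence and by counting error alone.

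As shares of the gene, the make-up of the reads differed between the libraries of the sexes. Circle E was 42.4% of the 99 female reads (exact Clopper-Pearson 95% interval 32.5% to 52.8%) and 8.74% of the 103 male reads (4.07% to 15.9%). Circle G was 12.1% (6.42% to 20.2%) in females and 34.95% (25.8% to 44.98%) in males. Circle L was 2.02% and 20.4%. Of the reads of E and G together, E took 85.7%, 75% and 69.2% in the female replicates and 30%, 23.1% and 13.6% in the male replicates. These intervals treat the summed reads of a sex as a single sample and cover counting error only. They leave out the differences between libraries. For circle G the male replicates ran from 25% to 47.5%, wider than its interval. PCR copies of a molecule are also left out, since they cannot be recognised without molecular identifiers.

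The reads of the reused ends also differed in share between the sexes. Circles closed at the donor 51362918 held 54 female and 14 male reads, 54.5% (44.2% to 64.6%) and 13.6% (7.63% to 21.8%) of the reads of the gene. By library the female share was 70.7%, 48.5% and 36%, wider than that interval, and it was 43.1% without female replicate 1. Circles closed at the donor 51345951 held 16 and 50, 16.2% (9.53% to 24.9%) and 48.5% (38.6% to 58.6%). The acceptor at 51342704 opened circles with 0, 6 and 0 reads in the female replicates and 5, 8 and 11 in the male replicates, 6.06% and 23.3%. Its female share rests on replicate 2, being 0% without that library and 10.3% without replicate 1. The donor at 51296258 had 2, 0 and 4 reads in females and 1, 5 and 3 in males, 6.06% and 8.74%, and its female share was 2.70% without replicate 3 and 9.09% without replicate 2. At the donor 51362918 the level was 17.8, 9.33 and 6.60 in the female replicates and 1.85, 2.01 and 1.81 in the male replicates. At the donor 51345951 it was 4.30, 2.92 and 2.93 in females and 5.09, 7.65 and 7.25 in males. The circles E and G carry most of these reads, so the shares of the ends are not independent of theirs.

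**Figure D3:**
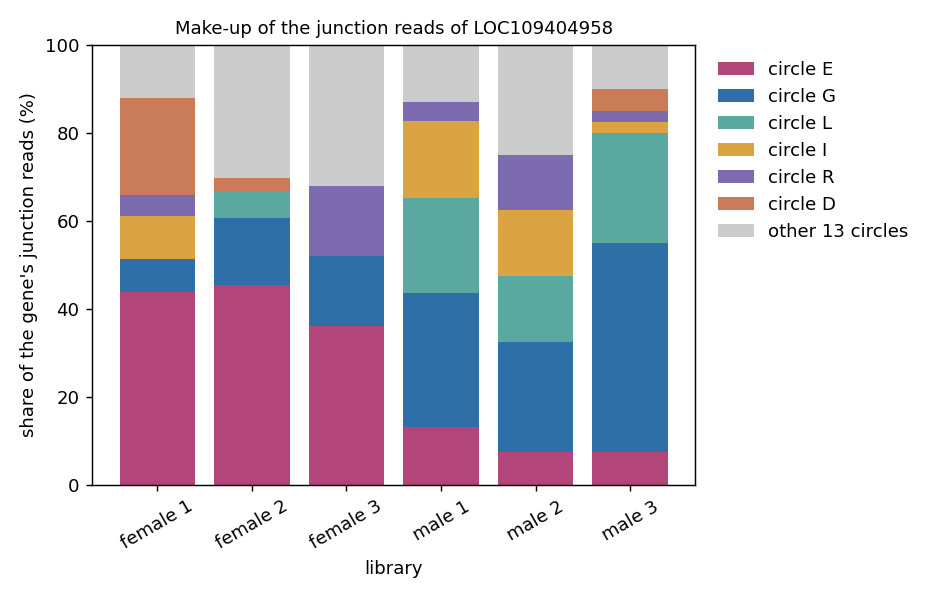
Share in percent of the junction reads of LOC109404958 taken by the 6 circles with most reads and by the other 13 together, in each library. Circle E is the largest single share in each female library and circle G the largest in each male library.

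Summed over all circles, the level of the gene was higher in the female libraries, and without circle E the sexes overlapped. The sums were 41, 33 and 25 reads in the female replicates and 23, 40 and 40 in the male replicates. The levels were 25.2, 19.2 and 18.3 in females and 10.6, 16.1 and 14.5 in males, which did not overlap. Among 870 host genes the sexes did not overlap in 24.9%, with females above in 12.1% and males above in 12.9%. The means were 20.9 ± 3.71 and 13.7 ± 2.81 (SD, n = 3 each), a log2 fold change, females relative to males, of 0.57 (SE 0.32). The 18 circles other than E summed to 12.1 ± 1.84 in females and 12.5 ± 2.92 in males, at 14.1, 10.5 and 11.7 against 9.26, 14.9 and 13.4. The 14 circles that do not span block F were at 7.11 ± 1.64 and 7.14 ± 2.53, and the 5 that do were at 13.8 ± 5.24 and 6.61 ± 1.87. These 5 include circle E, at 8.80 and 1.23, for which the gene was chosen. Their difference therefore restates that of circle E and is not a further result.

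**Figure D4:**
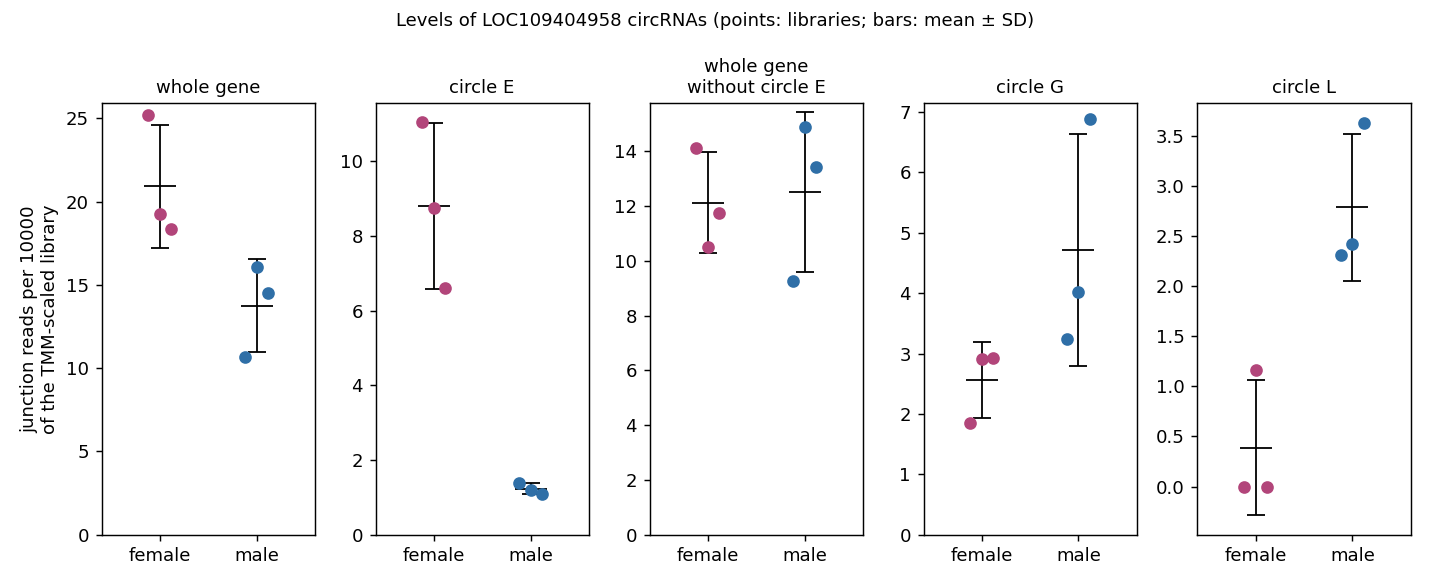
Level in junction reads per 10000 of the TMM-scaled library for the whole gene, circle E, the whole gene without circle E, circle G and circle L; points are libraries and bars are mean ± SD of 3 per sex, and each panel has its own axis. Circle E and the whole gene are higher in females, circles G and L are higher in males, and without circle E the sexes overlap.

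Whole bodies hold every tissue, and fewer cells of a type cannot be told apart from less RNA per cell. The summed levels of marker lists picked by words in product names are given beside these values, without a test of the sums. The ovary and oogenesis list held 13 host genes, of which 12 had reads in females and 11 in males. Those with most reads were maternal protein pumilio-like (LOC109409584), with 32 female and 37 male reads, and encore (LOC109426825), with 28 and 12. Read counts are not scaled to depth, which was greater in males. By level, pumilio-like was at 6.46 ± 4.43 in females and 4.83 ± 2.63 in males (mean ± SD). Encore was at 5.79 ± 5.13 and 1.58 ± 0.88. The list summed to 30.3 to 44.8 per library in females and 6.48 to 17.0 in males. Of its words, vitellogenin receptor, yolk, chorion, vitelline, nanos, vasa, egalitarian, oogenesis and gurken matched no host gene with a circle. The gut list (23 host genes) ran from 14.7 to 31.5 in females and 13.4 to 15.6 in males, so the sexes overlapped. Its member with most reads, the digestive protease trypsin-1 (LOC109420035), had 77 female reads and 1 male read, and the next, cytosolic carboxypeptidase 2 (LOC109433641), had 4 and 16. LOC109433641 was matched by the word carboxypeptidase, but its name gives a cytosolic enzyme, so it may not mark the gut. It was kept in all sums of this list. Without trypsin-1, a choice made after its values were seen, the gut list was at 4.40 to 14.0 in females and 13.4 to 15.2 in males, with the female mean then the lower. The muscle list (41) was at 47.7 to 55.4 and 63.8 to 69.6. Its leading members were twitchin (LOC109425333), with 59 female and 81 male reads, and the M-line protein unc-89-like (LOC115265359), with 17 and 57. By level, twitchin was higher in females, at 12.6 ± 2.93 against 10.8 ± 1.82 (mean ± SD), opposite to its read counts and to the list sum. The unc-89-like gene was at 3.53 ± 3.33 in females and 7.88 ± 2.41 in males. The nervous system list (128) was at 257.9 to 299.8 and 366.5 to 387.3, led by the potassium channel subunit beta-2 gene (LOC109411905) with 163 and 426 reads and slowpoke (LOC109398458) with 95 and 244. Its word neuro (41 host genes) also matches neurogenic locus notch homolog names, and its word potassium (43) is not limited to nerve. Unintended matches were not taken out of this sum.

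The fat body and hemocyte list (22) was at 33.2 to 41.8 in females and 33.4 to 52.7 in males. It was at 11.7 to 13.9 and 9.43 to 20.5 without 3 acetyl-transferring kinases that its words had matched by accident. Among these were its members with most reads (LOC115266328 and LOC109621250). The testis and sperm list (8, of which the 2 with most reads, LOC109423788 and LOC109430626, were spermine synthases matched by accident) was at 0 to 3.67 and 1.39 to 3.62. The part of these tissues in the values of LOC109404958 was not tested.

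The host genes whose level profile over the 6 libraries was most like that of LOC109404958 included a lipid enzyme and actin regulators. Likeness was measured as the percent of a profile that would have to move between libraries to give the other profile, where 0 is identical, over 869 host genes with a median of 22.6%. The nearest was acyl-CoA Delta(11) desaturase-like (LOC109412434), which introduces double bonds into fatty acids, at 3.66%. Hexokinase type 2 (LOC109418619), the first enzyme of glycolysis, was at 4.68%, and thymosin beta (LOC109405528), which binds actin monomers, at 4.84%. Protein Mo25 (LOC109416544), a scaffold of kinase complexes, was at 5.28% and enabled (LOC109401275), which promotes actin filament growth, at 5.33%. With a Euclidean distance between log2 levels, 3 of these 5 stayed among the nearest 5. These profiles share the same 6 libraries, and the likeness is a description.

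Of other genes listed for the basement membrane, 17 were tested by sex, and none passed. The list, picked by words in product names with earlier results of these data known, held 83 host genes besides LOC109404958, of which 17 had enough reads for the fit. Its laminin, peroxidasin, papilin and agrin genes were not among the 17. The 2 laminin genes had 16 and 13 reads. In the edgeR quasi-likelihood fit, with Benjamini-Hochberg correction across all 870 host genes, 0 were higher in females and 0 in males. Of all host genes tested, 4.83% passed, 2.53% higher in females and 2.3% higher in males. The lowest adjusted p of the list was 0.14 (edgeR). DESeq2 also called 0. In counts simulated from the means of these data, the host gene fit recovered 19% of 2-fold and 57% of 4-fold changes. That no gene of the list passed therefore does not show that the sexes are equal in them. By edgeR, 5 of the 17 (29.4%) had an unadjusted p under 0.05, against 18.2% of all host genes tested. A negative log2 fold change (females relative to males) was found for 14 of the 17 (82.4%), against 52.4% of all host genes tested, and the medians were -0.83 and -0.05. The sum of LOC109404958 was at 0.57, but no contrast with the list is drawn from it, since the gene was chosen for circle E and the sum without that circle overlapped between the sexes.

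Matrix proteins made up 11 of the 17 tested genes, but 4 of these 11 were matched only through the name of another isoform. The hemicentin-1-like gene LOC115261211 had 15, 5 and 4 reads in the female replicates and 28, 20 and 46 in the male replicates, a log2 fold change of -1.34 (edgeR adjusted p = 0.14, n = 3 each). Hemicentins are extracellular proteins with many immunoglobulin domains that anchor tissues to basement membranes, but 4 tested genes carried such a name, and the name alone does not fix their function. Fibulin-1 (LOC109621451), which binds laminin and other matrix proteins, had 12, 3 and 5 reads in females and 0, 8 and 1 in males, a log2 fold change of 1.74 (edgeR adjusted p = 0.38). Its sexes overlapped. Without female replicate 1, LOC115261211 and the fasciclin-2-like gene LOC109431349 were higher in males by edgeR (adjusted p = 0.035 and 0.026). LOC109431349 is among the genes matched through the name of another isoform.

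Receptors and linkers were represented by dystrophin genes, whose product links the cytoskeleton to matrix receptors. LOC115268965, the list member with most reads, had 22, 12 and 13 reads in females and 34, 40 and 54 in males (log2 fold change -0.81, edgeR adjusted p = 0.23), and LOC109411912 had 11, 20 and 6 against 7, 19 and 23 (0.21, edgeR adjusted p = 0.89). The other member among the 3 with most reads, hemicentin-1-like LOC109423194, had 4, 14 and 8 against 18, 28 and 19 (-0.70, edgeR adjusted p = 0.53). Heparan sulfate synthesis gave 2 tested genes, both heparan sulfate glucosamine 3-O-sulfotransferase 5-like, enzymes that add a late sulfate to the sugar chain. LOC109423748 was at -1.48 (edgeR adjusted p = 0.20) and LOC115270317 at -0.83 (edgeR adjusted p = 0.72). Matrix remodelling gave 1 tested gene, disintegrin and metalloproteinase 10-like (LOC109410817), at -0.11 (edgeR adjusted p = 0.96). Signals carried by heparan sulfate gave 1, decapentaplegic (LOC109401713), at -0.43 (edgeR adjusted p = 0.87). Of the 83 genes listed, 21 were in this signal group. Among these were Wnt, netrin receptor and mothers against decapentaplegic genes, which are not basement membrane proteins by name. The list has further limits: 4 of the tested genes were matched through the name of another isoform, and all 4 were counted as matrix proteins. They were fasciclin-2-like, a notch homolog and uncharacterized genes.

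**Figure D5:**
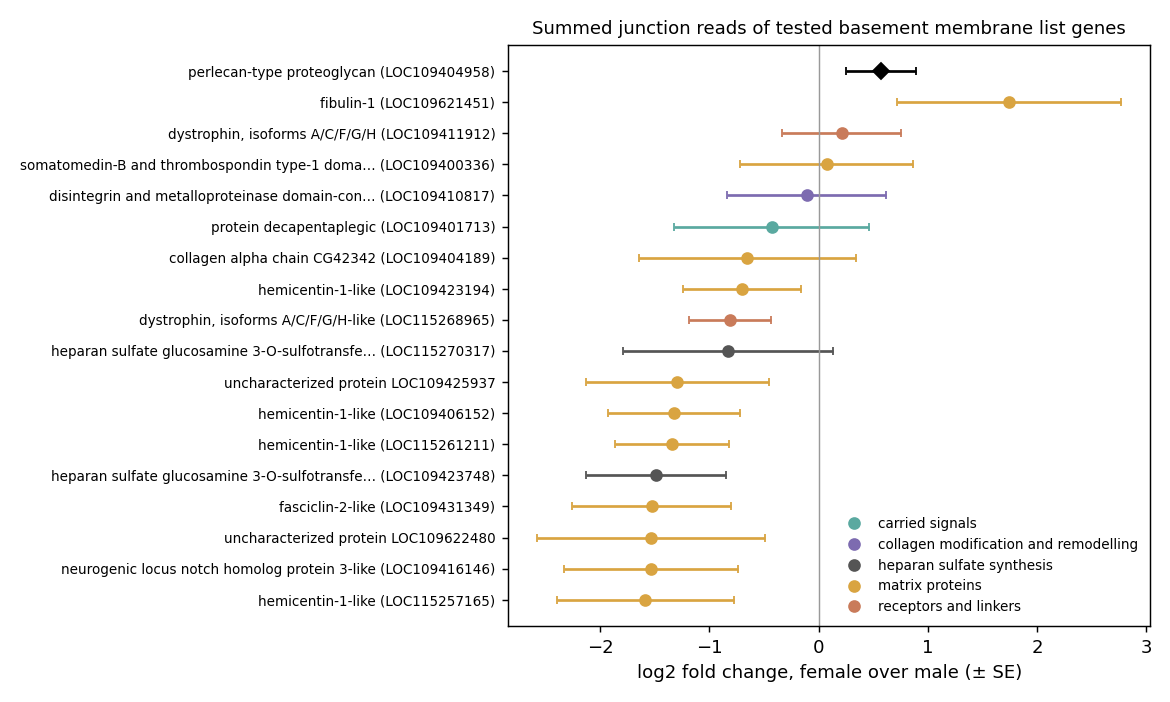
Log2 fold change of summed junction reads, female over male, with its SE, for the 17 tested genes of the basement membrane list, coloured by subgroup, and for LOC109404958 (black diamond). Of the list, 14 genes lie under 0 and no gene passed the edgeR test; LOC109404958, chosen on this contrast, is drawn for reference.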

How the data were processed

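The deposited counts are raw whole numbers of back-splice junction reads, 1 column per library. Their 30393 lines repeat a circRNA for each protein of its host gene and were collapsed to 8690. The deposited CPM table was TMM-normalised by the authors, as its name says. It holds 764 circRNAs, and 100% of its values match the counts within 0.01 reads after 1 factor per library (whole reads recovered). It includes all 738 circRNAs fitted as counts. Spliced length and gene position are the authors' other values. Bowtie2 2.1.0 appears in the submitters' processing notes. Caller, genome build and annotation were not given in the sources used here. No sequence was used. Spliced length equals end minus start in 604 exon-exon circRNAs and 1 base less in 836, which leaves the counting base of the starts (0 or 1) undetermined, and positions are printed as deposited.

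Counts, and counts summed per host gene, were fitted in edgeR 4.0.16 (R 4.3.3) with TMM factors, filterByExpr (minimum count 5, minimum total 15) and the quasi-likelihood test of sex, at an adjusted p threshold of 0.05. The SE was obtained from the size of the fold change and the F statistic. In these fits 28 and 21 circRNAs and 22 and 20 host genes were higher in females and males. DESeq2 1.42.0 was an alternative. The edgeR fits were tested on simulated data. Figures used matplotlib 3.10.9.

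Groups and replicate numbers came from the titles. Within a sex, libraries differed beyond counting noise (ratio of chi-square to degrees of freedom 2.17 to 3.30) and each counts as 1 replicate; the series design calls them biological replicates. Members and lists were chosen with earlier results of these data known. Named genes were all circles of the gene, the 5 host genes with the most alike profile, passing list members and the 3 with most reads, and the 2 with most reads per marker list. Further list genes were named after their values were seen.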

Additional observations from a re-analysis of the deposited data

How the results depend on the processing

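Circle E, circle G and the summed gene kept the direction of their log2 fold changes under all alternatives run: other size factors, plain totals, DESeq2, no filter on low counts, the replicate block, and each library left out. Without a filter, the value for circle E moved beyond the spread within a sex, to 2.48. With 1 library left out it ran from 2.61 to 2.997. For circle G the range with 1 library left out was -1.08 to -0.50, and for the sum 0.42 to 0.68. From the authors' deposited table of CPM, circle E was at 2.83 and circle G at -0.89. The number of circles fell from 19 to 10 when reads in 2 libraries were required and to 8 with at least 5 reads. Calls moved more. Without a filter, 3 circRNAs and 13 host genes were higher in females. DESeq2 called 36 host genes higher in females. With 1 library left out, circRNA calls ran from 14 to 27 in females and from 8 to 30 in males, with the lowest without male replicate 1 (14 and 8) and male replicate 2 (16 and 9). Host gene calls ran from 7 to 26 and from 5 to 25, lowest without male replicate 2 (7 and 5), and 11 and 9 without male replicate 1. Basement membrane list calls in males ran from 0 to 2, and the list median from -1.12 to -0.80. Without a filter the list median was -1.04, where the median of all host genes fitted also moved, by -0.19. The cause of these moves was not tested. Equal replicate numbers did not pair the libraries (correlations of deviations 0.020, 0.00079 and -0.016, and not every library correlated best with its own number). With the replicate block, 28 and 21 circRNAs and 28 and 24 host genes were called, and circle E was at 2.76. Depth limits most circles, since 11 of the 19 had under 5 reads in all.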
